A study of Oryza sativa with 6 samples.

Results

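The genes described here encode the secreted alpha-amylases of rice and a pair of proteins that handle the maltose released from starch, the maltose exporter *MEX1* and the glucanotransferase *DPE2*. They were chosen by name, as *AMY1.1*, *AMY1.5*, *RAmy3E*, *MEX1*, *DPE2* and every other gene with a symbol or synonym that starts with AMY or RAmy and a number. This gave 8 genes, of which 7 had a probe set of their own, out of 17905 genes on the array with one. The 7 genes were read by 8 of the 57194 probe sets tested. They comprised 5 alpha-amylase genes with 6 probe sets, since *RAmy3D* has a pair of them, together with *DPE2* and *MEX1*. *RAmy3B* (gene ID 9271949) was named by the rule but is not paired with a probe set, so it was not analysed here.

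The study asked what follows when *OsMADS29*, a MADS-box transcription factor gene of the seed, is silenced. Whole seeds of the rice variety PB1 were taken at the S3 stage, given as 5 to 10 days after pollination, and hybridised to 1-colour Affymetrix rice arrays. The WT group held 3 arrays of wild-type seeds, and the MADS29_KD group held 3 arrays of seeds from plants with an RNA interference construct against *OsMADS29*. The promoter that drove the construct on these plants, and which transformed line each array came from, are not given in the labels or the methods text used here, so the p-values cover only the variation among these 6 samples.

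Starch stored in a cereal grain is broken down mainly after germination, when the aleurone and the scutellum secrete alpha-amylase into the dead endosperm. Amylase genes are known to be induced by gibberellin and by sugar starvation and repressed by abscisic acid and sugar. *MEX1* and *DPE2* are best known from *Arabidopsis* leaves, where MEX1 exports maltose from the plastid at night and DPE2 transfers a glucosyl unit from it in the cytosol.

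Every value below is a log2 intensity, and every difference is MADS29_KD minus WT on that scale with its standard error (SE). A gene was called when its limma p, adjusted by Benjamini-Hochberg over all tested probe sets, was under 0.05, and "rose" and "fell" are used of called genes only. The background level of an array was the 95th percentile of 81 probe sets for sequences foreign to rice, and it lay between 2.76 and 2.91. *OsMADS29* itself measured 7.16, 6.60 and 7.30 in WT and 5.17, 5.11 and 4.90 in MADS29_KD. It fell by 1.96 ± 0.21 to 25.7% of the WT level (adjusted p = 0.00725). The 5′ probe set of actin was at background on WT replicate 2 (2.33) and MADS29_KD replicate 1 (2.75) and between 5.86 and 6.42 on the other 4 arrays, so results that change without those arrays are given without them too. The 3′ probe set of actin was 0.54 lower in MADS29_KD, with no overlap of the groups. Transcripts added during sample preparation also differed in mean, by 0.86 for 24 poly-A control probe sets and 0.79 for 18 hybridization control probe sets, both higher in MADS29_KD with overlapping groups. These shifts are of a size like those of *AMY1.5* and *DPE2* below, and their part in the results was not tested.

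Of the 7 measured genes, 3 rose in the silenced seeds, none fell and 4 were not called. Those that rose were *RAmy3E*, *AMY1.5* and *DPE2*, and *RAmy3E* and *DPE2* rose at least 2-fold. Over all tested probe sets, 5.07% were called higher and 6.28% lower, or 11.3% in either direction, and with a change of at least 2-fold required the shares were 2.05% higher and 2.49% lower. With 1 probe set a gene, 10.8% of genes were called higher and 14.8% lower. Before adjustment 6 of the 7 genes had p under 0.05, among them *RAmy3A* and *RAmy3D*, whose values lay at background. The groups did not overlap for 7 of the 8 probe sets, against 58.6% of all tested probe sets, so separation alone says little about these genes. Of the 7 genes, 4 were above background on every array of a group, and among all probe sets of that kind 12.7% were called higher and 17.9% lower. The median difference over the 7 measured genes was 0.02, against 0.0061 over all genes with 1 probe set each. That median is the value of *RAmy3D*, which lay at background, so it says little about the genes with signal.

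*RAmy3E* (gene ID 4345812, also named AMY1.4 and AMY3E), which encodes a secreted alpha-amylase, had the largest difference of the 7 genes. It measured 2.87, 2.68 and 2.66 in WT and 5.64, 6.22 and 6.24 in MADS29_KD. The WT values lay at the edge of detection, with 2 of the 3 arrays at or under their background level, while all 3 MADS29_KD arrays were well above it. The difference was 3.30 ± 0.19 (95% confidence interval 2.80 to 3.79, adjusted p = 0.00129). Since the WT mean of 2.74 ± 0.12 (SD, n = 3) was under the background level, the fold is a bound that uses that level. The estimate was at least 9.40-fold higher in MADS29_KD, and the 95% confidence interval above starts at 6.97-fold for the gene. An exact permutation test (two-sided) of its 6 values returned p = 0.10, below which 3 arrays against 3 cannot go, as it did for each probe set below whose groups did not overlap. In whole seeds, more cells of a type and more RNA per cell cannot be told apart. The probe set carries the suffix that Affymetrix gives to probes shared by several transcripts, so signal from a close relative cannot be told apart from that of *RAmy3E*.

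The lowest of the MADS29_KD values of *RAmy3E* was that of replicate 1, the array with little 5′ actin signal. On the 4 arrays with alike 5′ actin signal the difference was 3.47 (adjusted p = 0.00448), so the rise was as large without the other 2 arrays. Over all 17 alternatives it lay between 1.85, with a pseudocount of 16 added to the intensities, and 3.49, and the gene was called in each of them.

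*AMY1.5* (gene ID 4342055, also named amy2A and AMYC2) encodes another secreted alpha-amylase, and it rose as well. It measured 3.13, 3.12 and 3.13 in WT and 4.002, 3.576 and 3.800 in MADS29_KD. The WT arrays were nearly identical, all 6 arrays were above their background level, and the gap between the groups was 0.44. The WT mean was only 0.36 above the mean background level, so the WT signal was near the floor. The difference was 0.66 ± 0.11 (95% confidence interval 0.37 to 0.96, adjusted p = 0.0278), which is 1.58-fold. With a pseudocount of 16 added to the intensities the difference was 0.27 (adjusted p = 0.0465). The call of *AMY1.5* was close to its limit. It was not made on the 4 arrays with alike 5′ actin signal (0.56, adjusted p = 0.0753), without WT replicate 1 (adjusted p = 0.104), WT replicate 2 (0.0835), WT replicate 3 (0.110) or MADS29_KD replicate 3 (0.0918).

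The other alpha-amylase genes gave no signal above background on any of the 6 arrays. *AMY1.1* (gene ID 4330832, also named AMY1A) had a mean of 2.53 in WT and 2.55 in MADS29_KD (adjusted p = 0.180), and *RAmy3A* (gene ID 4347262) had 2.45 and 2.46 (adjusted p = 0.133). The probe sets of *RAmy3D* (gene ID 4345814, also named AMY3D) gave 2.52 against 2.54 (adjusted p = 0.160) and 2.38 against 2.38 (adjusted p = 0.855). The groups of 3 of these 4 probe sets did not overlap, by gaps of 0.0060 to 0.011, while the background level itself was 0.10 higher on average on the MADS29_KD arrays. A level under the background is not a measurement of these genes, so neither a change nor its absence was detectable for them.

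*RAmy3D* is the gene directly next to *RAmy3E* in the RefSeq gene order of assembly ASM3414082v1, and the gene beyond it, LOC4345815, has a pair of probe sets that were also at background. Signal from the *RAmy3E* probe set was thus the only one above background among these 3 neighbouring genes. *AMY1.5* lies next to LOC4342056, which differed by 0.38 (adjusted p = 0.106), and LOC4342057, which differed by 0.54 (adjusted p = 0.270). Neither neighbour was called.

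**Figure D1:**
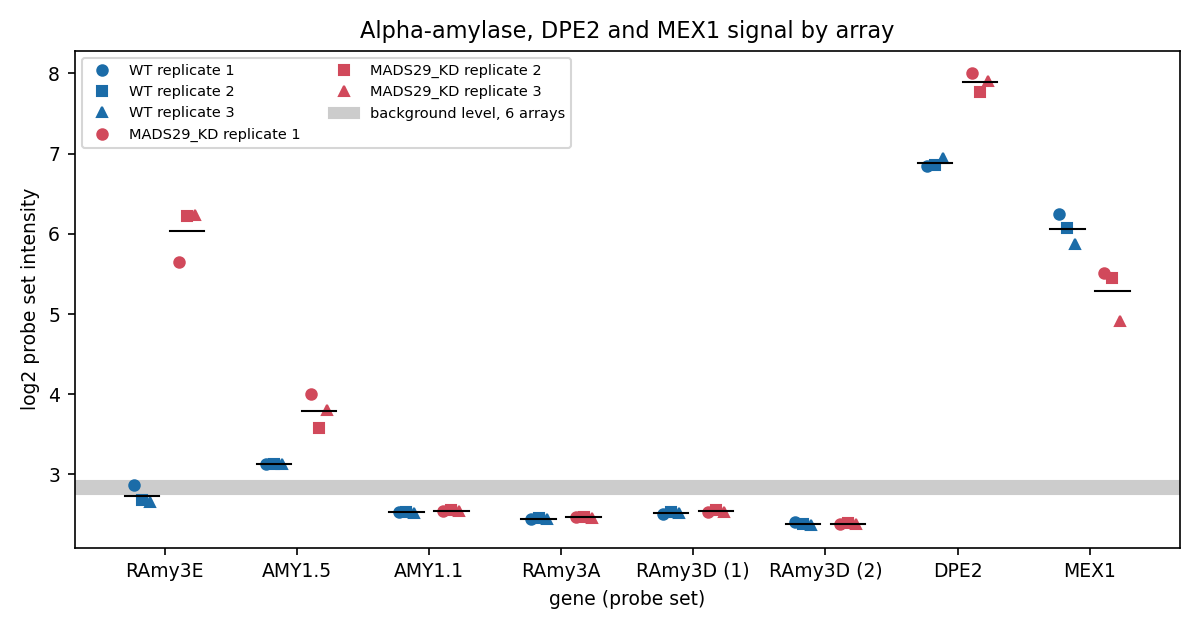
Log2 intensity of the 8 probe sets on each of the 6 arrays, by group (WT blue, MADS29_KD red, marker shape for the replicate number), with a line at each group mean and a grey band for the range of the background level over the arrays. *RAmy3E* goes from the background level in WT to between 5.64 and 6.24 in MADS29_KD, *AMY1.5* and *DPE2* are higher on all 3 MADS29_KD arrays, *MEX1* is lower on all 3, and *AMY1.1*, *RAmy3A* and *RAmy3D* stay under the band.

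*DPE2* (gene ID 4344192), the cytosolic enzyme of maltose use, had a clear signal in both groups and doubled in the silenced seeds. It measured 6.85, 6.86 and 6.95 in WT and 8.002, 7.770 and 7.901 in MADS29_KD. Each MADS29_KD array was at least 0.82 above each WT array. The difference was 1.01 ± 0.07 (95% confidence interval 0.83 to 1.18, adjusted p = 0.00189), a 2.01-fold rise with an interval of 1.78 to 2.27-fold. It was called under all 17 alternatives, with differences of 0.92 to 1.07.

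*MEX1* (gene ID 4336889), the plastid maltose exporter, had lower values in MADS29_KD but was not called. It measured 6.24, 6.08 and 5.87 in WT and 5.51, 5.45 and 4.91 in MADS29_KD. The groups did not overlap, with a gap of 0.37, and the lowest array was MADS29_KD replicate 3. The difference was -0.77 ± 0.20 (95% confidence interval -1.30 to -0.25, adjusted p = 0.0862), so the MADS29_KD level was 58.4% of that in WT. It was called when arrays were centred on probe sets above background (-0.72, adjusted p = 0.0218), when dim probe sets were left out (adjusted p = 0.0391) and when values were floored at background (adjusted p = 0.0202).

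The genes next to *MEX1* were not called, with differences of -0.06 for LOC4336887 (adjusted p = 0.525), -0.58 for LOC4336890 (adjusted p = 0.148) and -0.12 for LOC4336891 (adjusted p = 0.471).

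**Figure D2:**
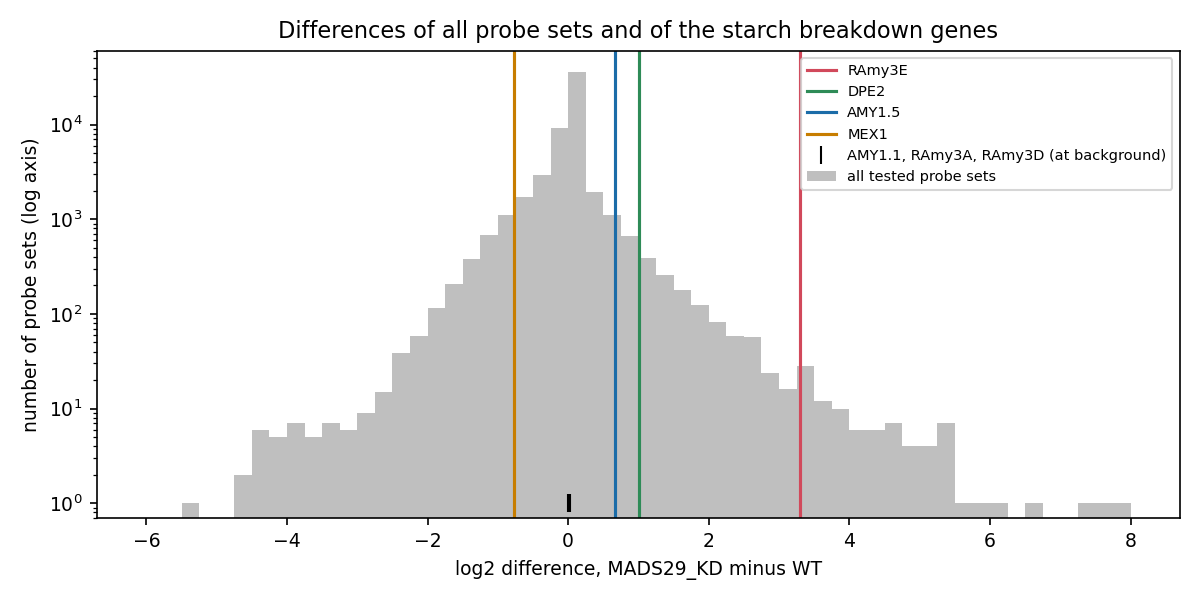
Number of probe sets (log axis) by log2 difference, MADS29_KD minus WT, for all 57194 tested probe sets, with lines at the named genes. *RAmy3E* at 3.30 lies in the thin upper tail, *DPE2* at 1.01, *AMY1.5* at 0.66 and *MEX1* at -0.77 lie on the shoulders, and the genes at background sit at 0.02 or less in the centre.

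Further enzymes of starch breakdown were sought by symbol, and 2 were found with a probe set. *DPE1*, the plastid glucanotransferase that acts on short glucans left by starch breakdown, fell. It measured 6.24, 6.28 and 6.14 in WT and 4.94, 4.84 and 4.58 in MADS29_KD, a difference of -1.44 ± 0.10 (adjusted p = 0.00237), and was 2.71-fold lower. *PWD*, the phosphoglucan, water dikinase that phosphorylates starch before its breakdown, measured 5.41, 5.41 and 5.25 in WT and 5.40, 5.38 and 5.26 in MADS29_KD. Its difference was -0.01 ± 0.07 with a 95% confidence interval of -0.18 to 0.16 (adjusted p = 0.891), which leaves out changes as large as that of *DPE1* or *DPE2*.

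**Figure D3:**
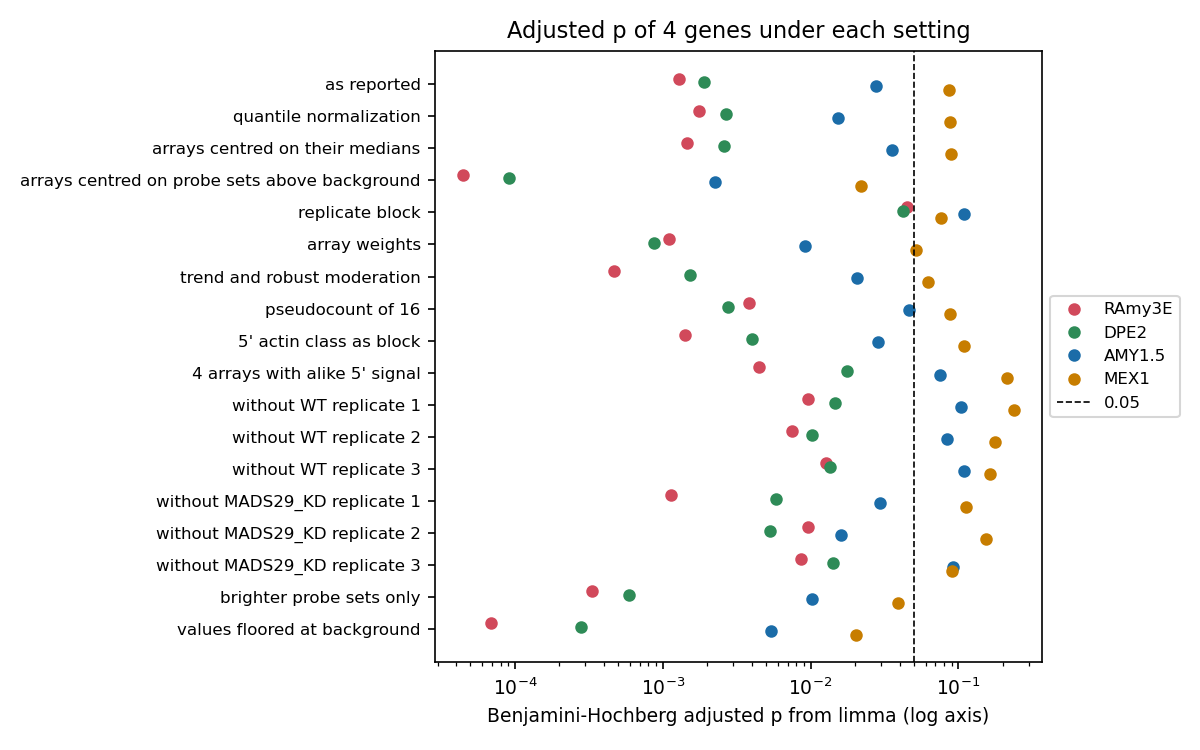
Benjamini-Hochberg adjusted p from limma (log axis) of *RAmy3E*, *DPE2*, *AMY1.5* and *MEX1* as reported (top row) and under each of 17 alternatives, with a dashed line at 0.05. *RAmy3E* and *DPE2* lie left of the line throughout, *AMY1.5* lies right of it in 6 of the 17 alternatives, and *MEX1* lies left of it in 3.

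Genes known to act on amylase genes were next examined, from a list that matched 17 genes by name, of which 14 were measured. Of these, 5 rose, 2 fell and 7 were not called, and the median difference was 0.31. The rises include *OSK3* and *SNRK1B*, whose probe sets may read the same transcripts (below). Over all genes with 1 probe set each, 10.8% were called higher and 14.8% lower, and the median difference was 0.0061. *MYBS3*, a MYB repressor of amylase genes under sugar, measured 5.35, 5.52 and 5.36 in WT and 6.56, 6.44 and 6.51 in MADS29_KD and rose by 1.095 ± 0.059 (adjusted p = 0.00111). A second probe set of *MYBS3* differed by -0.06 (adjusted p = 0.616), so the rise was seen by 1 probe set of 2. *GAMYB*, the MYB activator through which gibberellin turns on amylase genes, fell from 5.72, 5.66 and 5.65 to 5.20, 5.35 and 5.29, a difference of -0.40 ± 0.04 (adjusted p = 0.00788). By these probe sets *MYBS3* was higher, and *GAMYB* lower, on each MADS29_KD array than on any WT array.

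*VP1*, the seed factor of abscisic acid response, rose by 0.97 ± 0.10 (adjusted p = 0.00658), and *SAPK2*, a kinase of abscisic acid signalling, fell by 0.73 ± 0.08 (adjusted p = 0.00717). *GID1*, the gibberellin receptor, measured 4.22, 4.74 and 4.40 in WT and 5.70, 5.41 and 5.55 in MADS29_KD. It rose by 1.099 ± 0.161 (adjusted p = 0.0180), a call that held without WT replicate 2 and was lost without any other single array, up to an adjusted p of 0.0836. The DELLA gene *SLR1*, which acts below *GID1*, differed by -0.05 ± 0.11 (adjusted p = 0.733). *OSK3*, a gene of the SnRK1 kinase family that signals sugar starvation, rose by 0.78 ± 0.0093 (adjusted p = 7.4e-05). Its probe set is of a kind that may bind related transcripts, and of its other 2 probe sets 1 also rose, by 0.74 ± 0.09 (adjusted p = 0.00983), and 1 varied too widely to be called (0.57 ± 1.71). *SNRK1B*, the fifth gene that rose, changed by 0.69 ± 0.13 (adjusted p = 0.0360), and was not called without any single array but MADS29_KD replicate 2 (adjusted p up to 0.1245) or on the 4 arrays with alike 5′ actin signal (adjusted p = 0.139). Its other 2 probe sets, which may also bind related transcripts, both rose, by 0.69 ± 0.04 (adjusted p = 0.00110) and 0.81 ± 0.10 (adjusted p = 0.0114). The probe sets of *OSK3* and *SNRK1B* share the name stem Os.338 and may read the same transcripts, so their rises cannot be counted as separate. A relative of these genes, *SNRK1A*, differed by 0.71 ± 0.17 and was not called (adjusted p = 0.0748). *MYBS1*, an activator of amylase genes under sugar starvation, differed by -0.20 ± 0.09 (adjusted p = 0.198) with 1 MADS29_KD array at background.

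The list of alpha-amylase inhibitors and of seed allergens from the alpha-amylase/trypsin inhibitor family matched 5 genes, of which 4 were measured. Of these, 3 rose and none fell, and the median difference was 2.36, against 10.8% of all genes called higher, 14.8% lower and a median of 0.0061. *RASI*, the rice inhibitor of alpha-amylase and subtilisin, measured 7.53, 6.84 and 7.59 in WT and 9.45, 10.55 and 10.56 in MADS29_KD, a rise of 2.87 ± 0.40 (adjusted p = 0.0159). The groups lay far apart, but the spread within them was wide, and the call was lost without WT replicate 1, WT replicate 3, MADS29_KD replicate 2 or MADS29_KD replicate 3, with adjusted p up to 0.0639. The difference on the 4 arrays with alike 5′ actin signal was 3.00 (adjusted p = 0.00243). The allergen gene *RAG1* rose by 4.58 ± 0.32 (adjusted p = 0.00201) and *RAG2* by 1.85 ± 0.12 (adjusted p = 0.00162). A second probe set of *RAG1* was dim, with means of 2.70 and 3.06, and was not called (adjusted p = 0.0990). Of the other probe sets of *RAG2*, those above background also rose, by 2.43 ± 0.19 (adjusted p = 0.00283) and 2.29 ± 0.14 (adjusted p = 0.00149). *RA5* differed by 0.63 ± 0.20 (adjusted p = 0.124). *RAG1* and *RAG2* also stand among the endosperm markers below. By the probe sets used, signal was thus higher in MADS29_KD for *RAmy3E* and *AMY1.5*, for the inhibitor gene *RASI* and for the allergen genes *RAG1* and *RAG2*. The calls of *AMY1.5* and *RASI* were lost without some single arrays, and the *RAmy3E* probe set may also read a close relative.

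Other hydrolases that the germinating grain secretes were sampled by 3 genes. Of these, 1 rose, none fell and 2 were not called, with a median difference of 0.50. Over all genes with 1 probe set each, 10.8% were called higher and 14.8% lower, with a median of 0.0061. *CBP3*, a serine carboxypeptidase gene, rose from 7.56, 7.47 and 7.55 to 9.65, 9.86 and 9.79, which is 2.24 ± 0.06 or 4.72-fold (adjusted p = 0.000228). *CBP1*, another carboxypeptidase gene, differed by 0.50 ± 0.16 (adjusted p = 0.135). *REP1*, a gibberellin-induced cysteine proteinase of the germinating grain, was at background on all 6 arrays, with means of 2.53 and 2.54. Of the germination enzymes examined, the probe sets of *RAmy3E* and *CBP3* were thus higher, and *AMY1.5* rose with a call close to its limit. The *RAmy3E* probe set may also read a close relative. *CBP1* was above background and not called, while *REP1*, *AMY1.1*, *RAmy3A* and *RAmy3D* had no signal above background.

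A list of genes for sugar use matched 17 genes, of which 14 were measured, while sugar itself was not. The list holds hexokinases, sucrose phosphate synthases, sucrose transporters and a plastid triose phosphate transporter. None of the 14 rose, 3 fell and 11 were not called, with a median difference of -0.06. Among all genes with 1 probe set each, 14.8% were called lower and 10.8% higher, with a median of 0.0061. The count of falls alone thus says little about this list. The 3 that fell were hexokinase genes, whose enzymes phosphorylate glucose. The other hexokinase genes measured were not called. They were *HXK5* (-0.55, adjusted p = 0.141), *HXK6* or *HXK7* (-1.24, adjusted p = 0.0645) and *HXK4* or *HXK8* (gene ID 4326776, -0.13, adjusted p = 0.519). The gene known as *HXK3* or *HXK8* was at background on all 6 arrays. The gene known as *HXK2* or *HXK6* (gene ID 4326547) fell by 0.62 ± 0.05 (adjusted p = 0.00279) and the gene known as *HXK2* or *HXK3* (gene ID 4339420) by 1.08 ± 0.14 (adjusted p = 0.0116), a call lost without WT replicate 3 (0.0523) or MADS29_KD replicate 2 (0.0555). A second probe set of the latter gene differed by -0.82 ± 0.56 and was not called (adjusted p = 0.315). *HXK4* (gene ID 4342654) measured 4.29, 4.51 and 3.94 in WT and 2.55, 2.97 and 2.97 in MADS29_KD, where 1 array was at background. The difference was -1.42 ± 0.20 (95% confidence interval -1.94 to -0.89, adjusted p = 0.0163). With the background level as a bound, the estimate was a fall of at least 2.46-fold. The call was lost without WT replicate 1 (0.0720), MADS29_KD replicate 2 (0.0559) or MADS29_KD replicate 3 (0.0517). The sucrose transporter gene *SUT1* differed by 0.08 ± 0.27 (adjusted p = 0.812).

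**Figure D4:**
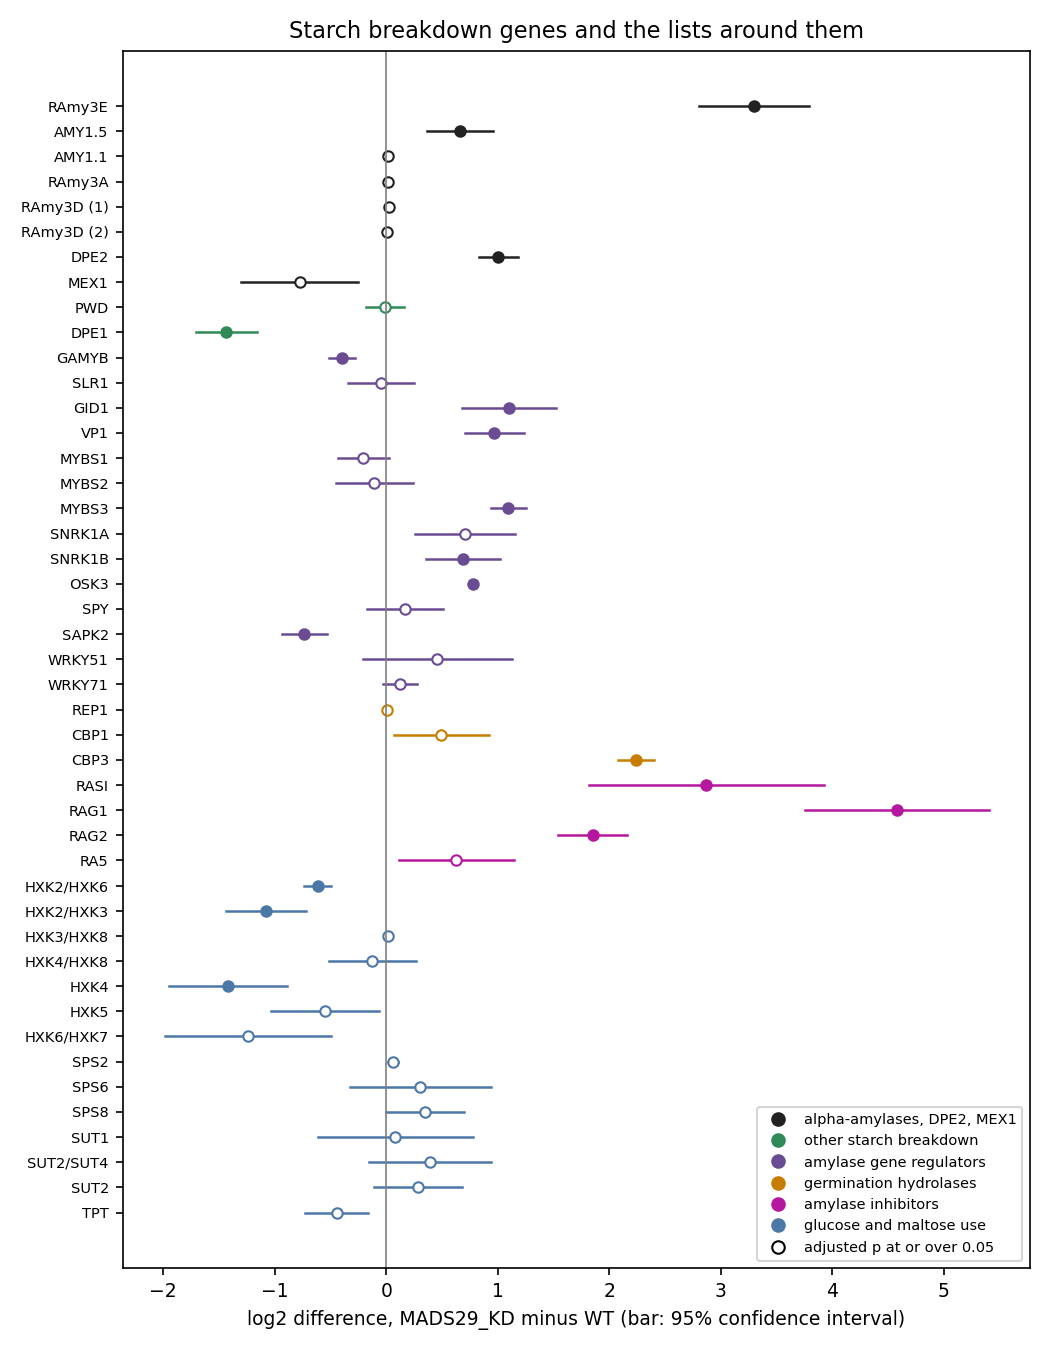
Log2 difference, MADS29_KD minus WT, of each measured gene by list (colour), with bars for the 95% confidence interval, filled points for called genes and open points for the others. The amylase inhibitor list, which includes the allergen genes, lies above 0 for all 4 genes. The hexokinase genes that were called lie below 0, and the other hexokinase genes have open points. *DPE1* at -1.44 and *DPE2* at 1.01 lie on opposite sides.

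Markers of the cells that a seed sample can hold moved between the groups, and their part in these results was not tested. For the counts below, the shares over all genes were 10.8% called higher and 14.8% called lower. Of 8 endosperm genes, which include glutelins and *RAG1* and *RAG2*, 5 rose and none fell. Their summed intensity was 36736 to 39390 in WT and 58614 to 60433 in MADS29_KD. Much of that increase was from *RAG1* (geometric mean 179 in WT and 4282 in MADS29_KD) and *RAG2* (3365 and 12133). The glutelins that rose did so by 0.33 to 0.65. The starch genes *WX* (0.07 ± 0.07, adjusted p = 0.476) and *AGPS2* (0.18 ± 0.09, adjusted p = 0.236) were not called. The glutelins *GLUA1*, *GLUA2* and *GLUB5* and the starch synthase gene *WX* were bright on all 6 arrays of this seed tissue, while *GLUB4* was at background. Of 8 measured genes of the maturing aleurone and embryo, among them dehydrins and *VP1*, 7 rose, and their summed intensity was 438 to 503 in WT and 7444 to 7886 in MADS29_KD. The 3 measured genes of the green pericarp did not move together. *CAB2R*, a chlorophyll-binding protein gene, fell by 1.197 ± 0.069 (adjusted p = 0.00130), *RCAA1*, which encodes Rubisco activase, rose by 1.80 ± 0.10 (adjusted p = 0.00122), and *RBCS*, for the small subunit of Rubisco, differed by -0.23 ± 0.08 (adjusted p = 0.150). Their summed intensity, 8190 to 8658 in WT and 4454 to 4793 in MADS29_KD, was mostly that of *CAB2R*. The embryo gene *OSH1* differed by -0.11 ± 0.06 (adjusted p = 0.262). Of 4 anther genes, *DTM1* rose and the other 3 were at background on all arrays. Their sum, 57.2 to 67.4 in WT and 92.0 to 114 in MADS29_KD, thus follows *DTM1* alone. The protease gene *VPE1* rose by 1.13 ± 0.02 (adjusted p = 0.000104), while a second probe set of it above background was not called (0.64 ± 0.30, adjusted p = 0.212). It was listed for the nucellus and maternal tissues, and whether it is particular to them was not tested. The only other gene of that list was the silenced *OsMADS29*, so the list gives no reading of those tissues.

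The named genes whose profile over the 6 arrays was most like that of *RAmy3E* were *GOS2*, with a Pearson correlation of 0.999, *OsSAP5*, also with 0.999, and *DAO*, with 0.998. The 6 points fall into the 2 groups, so such a correlation mainly marks genes that were higher in MADS29_KD, and 51 of the 3173 named probe sets compared had one above 0.99. *OsSAP5*, like *RAmy3E*, was near background in WT. It measured 2.72, 2.74 and 2.69 in WT, at background on all 3 arrays, and 5.66, 6.19 and 6.37 in MADS29_KD, where it too was lowest on replicate 1. *GOS2* and *DAO* were bright in both groups, with means of 10.57 and 7.72 in WT and 11.71 and 8.91 in MADS29_KD. Among the genes of starch breakdown the order of the MADS29_KD arrays differed, since *RAmy3E* was lowest on replicate 1 while *AMY1.5* and *DPE2* were highest there.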

How the data were processed

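The authors deposited 1 table of intensity values on a linear scale for 57381 probe sets and 6 arrays, made from 500 ng of total RNA each. Intensities ran from 3.98 to 16101, with column medians of 6.05 to 6.18. The background correction and normalization behind them are not given in the labels or methods text used here, and the supplementary methods were not used. No further normalization was applied, and the log2 of the deposited intensity was tested.

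After 123 AFFX and 64 reporter probe sets were left out, 57194 were fitted without a block by limma (version 3.58.1, under R 4.3.3), using lmFit and eBayes with Benjamini-Hochberg adjustment over all of them. In the array annotation 22436 of them carried a single gene, 95 carried more and 34663 carried none, and only the single ones gave names. All 17905 genes matched RefSeq (assembly ASM3414082v1), which was used for names and gene order. Arrays correlated at 0.990 to 0.998 within groups and 0.955 to 0.963 between them. Where a group was at background, a bound replaced the fold, computed against the higher of the background level and the probe set's own value on each array. Such a bound is an estimate from the group means and carries their sampling error. The number of arrays, 3 a group, limits the precision.

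Lists used the probe set with the highest mean for each gene. Of each list, called genes were named up to 6 by smallest adjusted p, and all genes of the starch breakdown list were named. *SNRK1B*, *SLR1*, *SNRK1A*, *MYBS1*, *RA5*, *CBP1*, *REP1* and *SUT1* were added after their values were seen. So were the hexokinase genes not called, second probe sets and the genes of the gene order and of single markers. The genes and lists were chosen with earlier results of these data known. 6 list entries were left out because their name belongs to an unrelated gene. A planned search for promoter motifs was not run. The fit was tested on simulated data. Alternatives were other normalizations, treatments of dim probe sets, array weights, moderation, a pseudocount of 16, blocks, and leaving out arrays.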

Additional observations from a re-analysis of the deposited data

How the results depend on the processing

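The direction of *RAmy3E*, *AMY1.5*, *DPE2* and *MEX1* was the same under all 17 alternatives. The second probe set of *RAmy3D*, at background with a difference of 0.0028, changed sign with quantile normalization (-0.0072), median centring (-0.014), array weights (-0.0065), the 4 arrays with alike 5′ actin signal (-0.00021), without WT replicate 3 (-0.0052) and without MADS29_KD replicate 2 (-0.00038), and over all arrays left out in turn it lay between -0.0052 and 0.013. Of the 7 genes, 1 (*MEX1*) was called lower when arrays were centred on probe sets above background, with brighter probe sets only and with values floored at background. With array weights 4765 probe sets were called higher, against 2901, and a pseudocount of 16 left 1323 at 2-fold, against 2596. With unadjusted p, 2770 passed at 2-fold.

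Leaving out 1 array gave 3596 (without WT replicate 3) to 5475 called probe sets, against 6490, with 3912 without WT replicate 1 and 4288 without MADS29_KD replicate 2. Higher calls then numbered 1499 to 2490, lower calls 2097 to 3191 and calls at 2-fold 1975 to 2491. The genes of the rule that rose numbered 2 to 3, those that fell 0, and the list genes called 11 to 16, against 15. *OsMADS29* fell by 1.82 to 2.17.

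With the replicate number as a block, 2140 probe sets were called, 997 higher and 1143 lower, with 1206 at 2-fold, 5 list genes were called, and *OsMADS29* was not (-1.96, adjusted p = 0.0796). *RAmy3E* was called with the block (adjusted p = 0.0452) and *AMY1.5* was not (adjusted p = 0.110). Deviations from the group means correlated at -0.54, -0.54 and 0.46 between arrays of the same number. Between arrays of different numbers the correlations ran from -0.56 to 0.69, the highest for WT replicate 2 with MADS29_KD replicate 1. Deviations from a mean of 3 arrays depend on each other, so these values cannot decide whether the samples are paired.

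The cause of these changes was not tested. Genes near the background level have only bounds, and with 3 arrays a group no single-gene permutation test can reach 0.05.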
